A study of Mus musculus with 6 samples.

Results

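The mesothelial marker genes are 10 genes whose products are known from mesothelium, the flat cell layer that lines the pleura, the peritoneum and the pericardium: Msln, Upk3b, Upk1b, Wt1, Bnc1, Krt19, Lrrn4, Muc16, Gpm6a and Cav1. Every probe set whose only annotated gene symbol was one of these was taken, which gave 15 probe sets of 45037 and 10 genes of 18193. The genes were proposed with the signals of the same pRb-deficient against pRb-expressing contrast already known. They were thus in part chosen on those values, and their differences between the groups are given here as a description. Where a member is said to be called or not called, the call comes from the fit across all probe sets on this same contrast, and it supports nothing beyond the values.

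Gene expression was measured in MC3T3 osteoblasts, calvarial bone cells of embryonic day 18.5 mice that were immortalized with the 3T3 passage protocol, on 1 Affymetrix Mouse Genome array per culture. The 3 pRb-expressing cultures are labelled Wild type and the 3 pRb-deficient cultures Rb Knockout. Both came from animals bred from flox19-RB1 mice, which were kept on C57BL/6, and mice of unstated background carrying Cre under the 2.3 or 3.6 Col1a1 promoter, which is active in cells of the osteoblast lineage, and the labels do not say which Cre line or which alleles an individual culture carried. Both were grown in the same medium, and no treatment is named. The labels call the cultures biological replicates without saying whether they came from separate animals or lines, so the error given here is the spread between these cultures, which may be technical, and line of origin and pRb status cannot be told apart.

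Mesothelial cells are of mesodermal origin yet form an epithelial sheet, and they carry keratins and surface glycoproteins together with transcription factors of the embryonic coelomic lining. Mesothelin (Msln) is a surface protein anchored by a lipid tail, and it binds the large mucin encoded by Muc16, which is known as CA125. Wt1 is the zinc finger factor that marks the coelomic lining in the embryo, and Bnc1 (basonuclin 1) is a zinc finger factor of squamous epithelia and germ cells that is also found in mesothelium. Of the others, Upk3b and Upk1b encode uroplakins, membrane proteins best known from bladder, Krt19 a simple-epithelial keratin, Lrrn4 a leucine-rich repeat membrane protein, Gpm6a a membrane glycoprotein of neurons, and Cav1 caveolin 1, the coat protein of caveolae, which many mesenchymal cells contain.

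Signals are linear MAS5 values, which the authors had brought to the same trimmed mean on every array. On an array, 24.4% to 26.6% of the probe sets lay at or below 32, and this value was used as a floor. Differences were read within a probe set, since levels of different probe sets are not comparable, and a signal summed over a list of markers is given only to compare the same probe sets between cultures. Log2 fold changes are pRb-deficient over pRb-expressing on the floored log2 signals. A probe set was called where its adjusted p from limma, over the 38427 probe sets above the floor on at least 1 array, was under 0.05. A gene is represented by its brightest probe set, and folds are ratios of the geometric means of floored signals. On that scale a fold against a group with arrays at or below 32 is a lower bound ("at least").

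The signal of Rb1, the targeted gene, was 1106 to 1124 in pRb-expressing and 124 to 143 in pRb-deficient cultures. The position of its probes in the gene was not looked up, so these values do not test the deletion. Xist, which is transcribed from the inactive X chromosome, was at 160 to 176 in pRb-expressing and at 9658 to 12296 in pRb-deficient cultures, and the Y-linked genes Eif2s3y, Kdm5d and Uty were at 438 to 925 and at 1.1 to 25.0. These sex-linked genes split the cultures as pRb status does, so differences tied to sex and to pRb cannot be told apart. The median log2 fold change of the genes on a chromosome ranged from −0.58 on chromosome 6 to 0.35 on chromosome 15, and that of the member's own chromosome is given beside it. Of 10 osteoblast markers listed, 7 were analysed here (all but Runx2, Bglap and Spp1), and 7 were called lower, against a background of 23.4% of all genes tested. Among them were Ibsp (bone sialoprotein, at least 71.1-fold) and Dmp1 (at least 15.0-fold). The transcription factor Sp7 was at 1574 to 2084 with pRb and 16.4 to 185 without it, and Alpl had a log2 fold change of −1.17. For these named genes the adjusted p from limma was 2.66e-06 to 0.00474. The other falls were smaller, with log2 fold changes of −0.80 for Col1a1, −0.76 for Col1a2 and −0.36 for Sparc. The medians of their chromosomes were −0.52 (chromosome 11, Col1a1 and Sparc) and −0.58 (chromosome 6, Col1a2).

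Msln and Bnc1 were under the floor with pRb and bright without it, while most other members stayed dim in all 6 cultures. Of the 9 members tested, 3 were called higher in pRb-deficient osteoblasts (Msln, Bnc1 and Krt19) against a background of 18.5% of all 16308 genes tested. Another 2 were called lower (Upk1b and Cav1) against a background of 23.4%, 4 were not called (Upk3b, Wt1, Lrrn4 and Muc16), and Gpm6a was at or below 32 on all arrays and was not tested. Of the 11 member probe sets tested, 3 were called higher (background 16.2% of probe sets) and 2 lower (background 18.8%). The signals of the groups did not overlap in 3 members that were higher, against 23.2% of genes tested, and in 3 that were lower, against 30.6%. The median log2 fold change of the 9 members was −0.09, the same as that of all genes tested (−0.09). Since the contrast was used in proposing the members, nothing is read from these counts. Without pRb-deficient replicate 2 the number called lower was 1. RNA of a whole culture was measured, so more cells of a kind and more RNA per cell cannot be told apart.

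**Figure D1:**
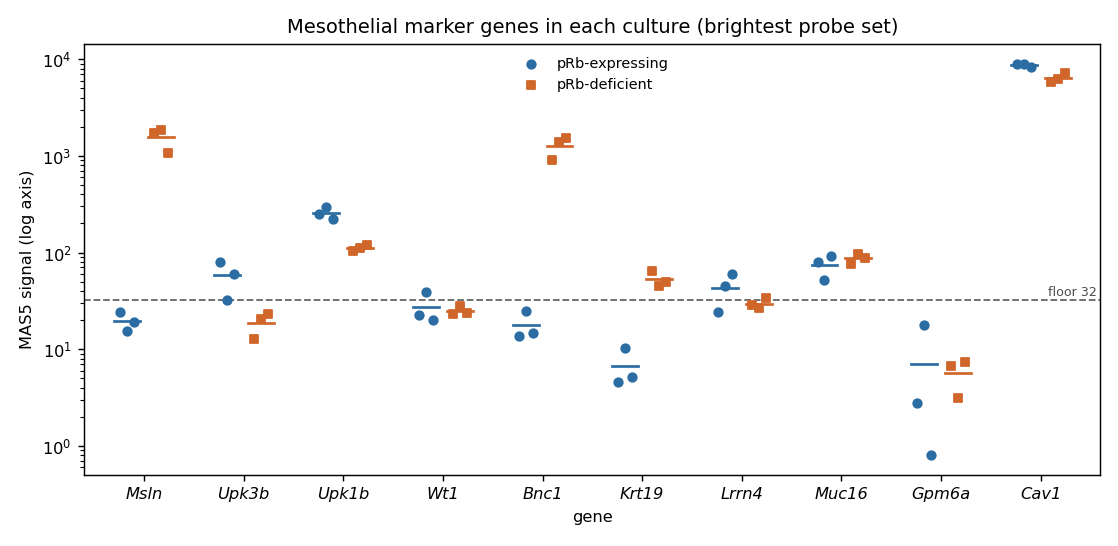
MAS5 signal (log axis) of the brightest probe set of each of the 10 mesothelial marker genes (x axis) in each culture, with pRb-expressing cultures as circles, pRb-deficient cultures as squares, the mean of 3 cultures as a bar and the floor of 32 as a dashed line. Msln and Bnc1 lie under the floor in all pRb-expressing cultures and between 902 and 1860 in pRb-deficient cultures, and Wt1, Lrrn4 and Gpm6a lie near or under the floor in both groups.

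Of the surface glycoproteins of mesothelium, Msln was higher without pRb and Muc16 overlapped between the groups. Msln had signals of 24.2, 15.3 and 19.1 in the pRb-expressing cultures and of 1728, 1860 and 1066 in the pRb-deficient cultures. All pRb-expressing cultures were thus under the floor, and the lowest pRb-deficient culture lay far above them. On geometric means Msln was at least 47.1-fold higher without pRb, which is 5.56 on the log2 scale (standard error 0.23, n = 3 cultures each), and the median of its chromosome, 17, was −0.26. Muc16, the mucin that mesothelin binds, had signals of 79.9, 52.3 and 93.0 with pRb and of 76.2, 96.6 and 88.6 without it. These groups overlapped, and the log2 fold change was 0.25 (standard error 0.26, chromosome median 0.28). Msln was thus called and its partner was not, and the difference between their changes was not tested. Each of them is represented by a single probe set.

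Among relatives of these glycoproteins, the stereocilin gene Strc and the otoancorin gene Otoa, both of the mesothelin family and known from the inner ear, were not called (log2 fold changes of 0.36 and 0.20). The membrane mucins Muc1 and Muc4 gave no call either, Muc1 being at or below 32 in all cultures and Muc4 having a log2 fold change of −0.08. None of these relatives was called higher.

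Both uroplakin members were lower or dim. In the brightest of 4 probe sets, Upk1b had signals of 249, 296 and 221 with pRb and of 104, 112 and 118 without it. The groups did not overlap, and the log2 fold change was −1.19 (standard error 0.18), beside a median of −0.43 for chromosome 16. The other probe sets of Upk1b were at or near the floor in both groups, with signals of 3.0 to 37.0. Of these, 2 were tested and gave −0.04 and −0.12, and neither was called, so the lower signal of Upk1b rests on 1 of 4 probe sets. Upk3b had signals of 80.6, 32.6 and 60.3 with pRb and of 12.7, 20.3 and 22.9 without it in its brighter probe set, whose name marks probes that can match several transcripts. All pRb-deficient cultures were under the floor and 1 pRb-expressing culture was barely above it, and the log2 fold change of −0.76 (standard error 0.31) was not called. A second probe set of Upk3b stayed between 5.8 and 16.5 in all 6 cultures.

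Among the other uroplakins and their relatives, Upk1a and Upk3bl were called lower without pRb. Upk1a, which pairs with Upk2 in bladder, fell from 310, 334 and 343 to 194, 226 and 257 (log2 fold change −0.55, adjusted p = 0.0247 from limma), and Upk3bl, a relative of Upk3b, from 136, 172 and 211 to 78.2, 63.4 and 99.6 (−1.10, adjusted p = 0.0145 from limma). Upk2 and Upk3a were not called, with log2 fold changes of −0.31 and −0.47. Of the 8 relatives of uroplakins, mesothelin and its mucin partner that were measured, 7 were tested, 2 were called lower and 0 higher by limma, and at an unadjusted p under 0.05 as well 0 were higher, against backgrounds of 23.4% lower and 18.5% higher over all genes tested. Their median log2 fold change was −0.31, beside −0.09 over all genes tested.

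Of the transcription factors, Bnc1 was bright without pRb and Wt1 was dim in both groups. Bnc1 had signals of 13.8, 24.9 and 14.6 with pRb and of 902, 1394 and 1516 without it. All values with pRb were under the floor, and on geometric means Bnc1 was at least 38.8-fold higher without pRb (log2 fold change 5.28, standard error 0.22, chromosome 7 median −0.33). Wt1 had signals of 22.7, 38.6 and 20.0 with pRb and of 23.0, 28.2 and 23.5 without it. It exceeded the floor in 1 culture only, and its log2 fold change was −0.09 (standard error 0.12). Wt1 has 1 probe set here, whose name marks probes shared between transcripts.

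Bnc2, the relative of Bnc1, is a zinc finger gene of mesenchymal cells that was not among the members. Its signals were 27.0, 8.7 and 13.1 with pRb and 1569, 1805 and 1665 without it, and these groups did not overlap. Bnc2 was at least 52.4-fold higher without pRb (5.71 on the log2 scale, with a standard error of 0.13 and an adjusted p of 1.52e-06 by limma), and the call was made in 2 of its 3 probe sets. Both basonuclin genes, on chromosomes 7 and 4, were thus called higher in pRb-deficient osteoblasts.

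Genes reported elsewhere as WT1 targets were listed as well. Of 11 measured, 10 were tested, 2 were called higher, 3 lower and 5 were not called, close to the backgrounds of 18.5% higher and 23.4% lower over all genes tested. Spry1, a feedback inhibitor of receptor tyrosine kinase signaling, rose from 212, 233 and 239 to 2574, 2470 and 1440 (log2 fold change 3.20, adjusted p = 7.38e-05 from limma). The intermediate filament gene Nes (nestin) rose by 2.01 on the log2 scale and was called in 1 of 3 probe sets. Wnt4, a Wnt ligand of the developing kidney and gonad, fell from 356, 327 and 358 to 29.3, 49.1 and 24.6 (−3.23, at least 9.39-fold, adjusted p = 8.01e-05 from limma). It was called in 1 of 2 probe sets. Gas1, a membrane protein of growth-arrested cells, fell by 0.95 on the log2 scale and was called in 2 of 3. Podxl, which encodes podocalyxin, had a log2 fold change of 0.00 and Itga4 of −0.12, and neither was called.

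The regulatory sequence in front of these genes is shown for 3 members with different patterns over the cultures, Bnc1 (under the floor with pRb and at 902 or more without it), Cav1 (at 5787 or more in all cultures) and Upk3b (at 80.6 or less in all cultures and not called). The RefSeq promoter table for GRCm38.p6 held windows, from 250 bases before to 50 after the start of transcription, for 6 of the 10 members: Upk3b, Bnc1, Lrrn4, Muc16, Gpm6a and Cav1. Msln, Upk1b, Wt1 and Krt19 had no entry. The lines below give the 250 bases before the start, 5′ to 3′ in the direction of transcription, at chr7:81992300-81992549 on the minus strand for Bnc1, chr6:17306085-17306334 on the plus strand for Cav1 (the first of 2 starts) and chr5:136038246-136038495 on the plus strand for Upk3b. Capitals mark matches to GGGCGG (the GC box), TATAAA (the TATA box) and GGAATG (the core read by TEAD factors) on either strand, and the last capitals of Cav1 belong to a GC box that crosses the start.
Bnc1: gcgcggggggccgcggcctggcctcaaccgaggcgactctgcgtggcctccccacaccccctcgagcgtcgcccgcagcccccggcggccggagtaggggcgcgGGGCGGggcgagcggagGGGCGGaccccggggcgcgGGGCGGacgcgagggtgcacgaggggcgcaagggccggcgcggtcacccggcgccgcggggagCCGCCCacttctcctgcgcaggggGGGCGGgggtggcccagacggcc
Cav1: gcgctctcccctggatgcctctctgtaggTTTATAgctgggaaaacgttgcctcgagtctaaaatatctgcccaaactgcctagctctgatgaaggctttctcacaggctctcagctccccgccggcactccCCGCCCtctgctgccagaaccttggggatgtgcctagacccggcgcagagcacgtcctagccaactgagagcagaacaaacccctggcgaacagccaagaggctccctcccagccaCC
Upk3b: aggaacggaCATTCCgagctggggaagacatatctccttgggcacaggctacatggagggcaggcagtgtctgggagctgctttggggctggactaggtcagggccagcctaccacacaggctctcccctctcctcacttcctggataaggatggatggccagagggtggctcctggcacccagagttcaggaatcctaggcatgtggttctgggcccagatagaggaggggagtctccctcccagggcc

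Bnc1 had the most GC-rich of these windows, with 83.3% G and C, 50 CpG dinucleotides and 6 matches to GGGCGG in 300 bases. The median over all 32851 windows was 52.7% G and C and 7 CpG, and 35.7% of windows held GGGCGG. The first Cav1 window had 13 CpG and 2 GC boxes and the Upk3b window 2 CpG, no GC box and 1 match to GGAATG, which 14.7% of windows held. The E2F motif (TTTCCCGC, TTTCGCGC, TTTGCCGC or TTTGGCGC on either strand) was in 2.26% of all windows and in none of the windows of the 6 members. The AP-1 motif (TGACTCA or TGAGTCA), held by 5.2% of windows, was in none of them either. TTTGAA, the CHR element of cell cycle genes, was in 17.9% of windows and among the members in those of Muc16 and Gpm6a. TATAAA, in 13.6% of windows, was in the first window of Cav1 and the second of Gpm6a. The motifs were chosen after the signals had been seen, motifs were searched on both strands and may overlap each other, and a match is only a match of letters.

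**Figure D2:**
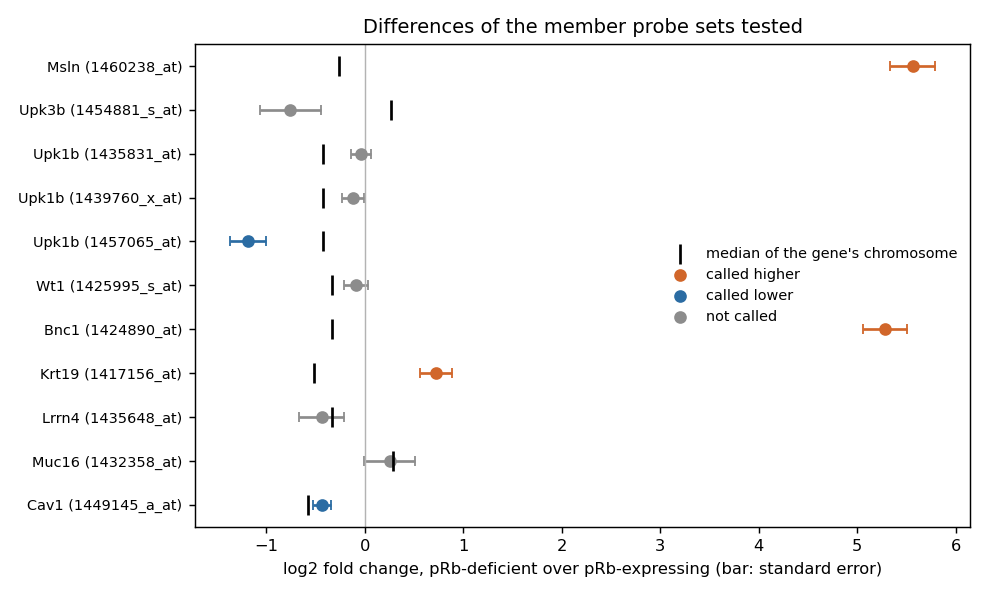
Log2 fold change (x axis, pRb-deficient over pRb-expressing, bar of 1 standard error, n = 3 cultures each) of the 11 member probe sets above the floor on at least 1 array, with the median log2 fold change of the gene's chromosome as a vertical tick. Msln at 5.56 and Bnc1 at 5.28 lie far right of their chromosomes, Krt19 at 0.72 lies to the right of its own, and Cav1 at −0.44 lies close to the median of chromosome 6.

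Krt19 was higher without pRb at a low level. Its signals were 4.6, 10.4 and 5.1 with pRb and 64.3, 45.4 and 49.9 without it. The groups did not overlap, and all pRb-expressing cultures were under the floor while the pRb-deficient cultures lay not far above it, so the fold was at least 1.64 (log2 fold change 0.72, standard error 0.16, chromosome 11 median −0.52). The log2 fold change of Krt19 was 3.07 with no floor, 1.14 with a pseudocount of 32 in place of the floor, 1.24 with chromosome medians removed and 0.00 with a floor of 100, at which no signal of Krt19 is left.

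Keratin 19 assembles into filaments with type II keratins of simple epithelia. Of 7 other keratin genes listed (Krt5, Krt7, Krt8, Krt14, Krt17, Krt18 and Krt20) 6 were tested. Of these, 0 were called higher by limma, with 0 also at an unadjusted p under 0.05, and 1 was called lower. The backgrounds over all genes tested were 18.5% higher and 23.4% lower, and with so few genes nothing is read from the counts. Krt8 fell from 191, 282 and 230 to 80.1, 101 and 171 in its brightest probe set (log2 fold change −1.06, adjusted p = 0.0369 from limma), the only 1 of 3 that was called. Krt18 had signals of 38.8 to 45.6 with pRb and 42.2 to 42.4 without it, and Krt7 of 5.5 to 50.0 and 8.1 to 35.4, and neither was called. Krt20, Krt14 and Krt5 were not called (log2 fold changes of −0.68, −0.36 and 0.01), and Krt17 was at or below 32 in all cultures.

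The membrane proteins Lrrn4 and Gpm6a were dim. Lrrn4 had signals of 24.5, 45.0 and 59.9 with pRb and of 28.3, 26.7 and 34.0 without it, which overlapped (log2 fold change −0.44, standard error 0.23, chromosome 2 median −0.33), and it was not called. Its relatives Lrrn2 and Lrrn3 were at or below 32 in all cultures, and Lrrn1 had a log2 fold change of 0.33. Lrrn4cl, a gene named for its likeness to Lrrn4, was measurable at 366, 296 and 368 with pRb and 708, 560 and 296 without it, an overlap that left its log2 fold change of 0.52 without a call (adjusted p = 0.255 from limma).

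Gpm6a gave signals of 0.8 to 17.6 over its 2 probe sets in all 6 cultures, so at this array's sensitivity no difference could be read. Its relative Gpm6b, which glia and osteoblasts also express, rose from 76.0, 64.4 and 69.0 to 501, 418 and 280. The groups did not overlap, the fold was 5.58 (log2 fold change 2.48, adjusted p = 0.000329 from limma), and 2 of 3 probe sets were called higher. Of 7 other neuronal and glial genes tested, 3 were called lower (Sox10, Tubb3 and Syp) and 1 higher (Map2). The backgrounds over all genes tested were 23.4% lower and 18.5% higher. Sox10 and Map2 were each called in 1 of 3 probe sets tested, and Syp in 1 of 2. Mbp was not called in its brightest probe set but was called lower in 2 of 6 probe sets tested.

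Cav1 was bright in all cultures and a little lower without pRb. Its signals were 9005, 8867 and 8226 with pRb and 5787, 6301 and 7166 without it. The groups did not overlap, and the fold was 1.36 (log2 fold change −0.44, standard error 0.09). The median of chromosome 6, on which Cav1 lies, was −0.58, and relative to it Cav1 was 0.14 higher on the log2 scale, so the direction of this member depends on whether the chromosome median is removed. The call was also lost without pRb-expressing replicate 1 or 2 or without pRb-deficient replicate 2. Cav2, its neighbour on chromosome 6 and its partner in the caveolar coat, was at 4645 to 5072 with pRb and 3760 to 4781 without it and was not called (log2 fold change −0.16), and the muscle caveolin gene Cav3 was at or below 32 in all cultures.

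The cavins, which shape caveolae together with caveolin, split. Cavin1 fell from 6173, 6609 and 5682 to 2538, 2921 and 3577 (2.06-fold, adjusted p = 0.000957 from limma) and was called in 2 of 3 probe sets. Cavin3 fell by 1.11 and Cavin4 fell by 1.24 on the log2 scale. Cavin2 rose from 1713, 1677 and 1721 to 7180, 8934 and 8811, a fold of 4.85 (adjusted p = 1.11e-05 from limma), and all 3 of its probe sets were called higher. Ehd2, an ATPase at the neck of caveolae, fell by 0.43 on the log2 scale in 1 of 5 probe sets. Of 6 caveola genes tested beside Cav1, 1 was thus higher, 4 were lower and 1 was not called. The backgrounds over all genes tested were 18.5% higher and 23.4% lower. The median log2 fold change of these caveola genes was −0.74, beside −0.09 over all genes tested. Relative to the medians of their chromosomes, the log2 changes were −0.52 for Cavin1, −0.78 for Cavin3, −1.30 for Cavin4 and −0.10 for Ehd2. On the same scale they were 2.78 for Cavin2 and 0.42 for Cav2.

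**Figure D3:**
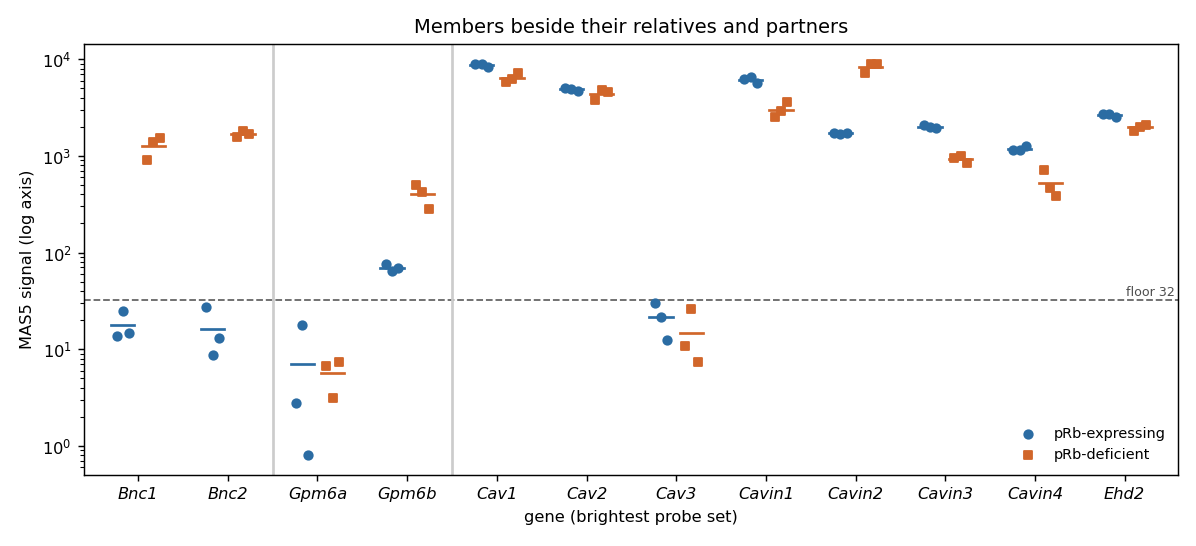
MAS5 signal (log axis) of members and their relatives or partners (x axis, brightest probe set) in each culture, with circles for pRb-expressing and squares for pRb-deficient cultures, the mean of 3 as a bar and the floor of 32 as a dashed line. Bnc1 and Bnc2 lie under the floor with pRb and at 902 or more without it, Gpm6b rises while Gpm6a stays under the floor, and Cavin2 rises where Cavin1, Cavin3 and Cavin4 fall.

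Beyond the members, 30 other genes of serosal lining cells were listed, and 29 of them were measured. Of the 27 tested, 5 rose, 8 fell and 14 were not called, and their median log2 fold change was −0.03, beside −0.09 over all genes tested and the backgrounds of 18.5% higher and 23.4% lower. The number that fell was 4 without pRb-expressing replicate 1 or 3 or pRb-deficient replicate 2, and 4 with a floor of 100 or with no filter on low signals. Rspo1, a secreted enhancer of Wnt signaling that is known from coelomic lining and gonad, rose from 20.0, 36.7 and 21.3 to 761, 579 and 472 (at least 17.7-fold, adjusted p = 2.73e-05 from limma). Gata6, a zinc finger factor of mesoderm and endoderm, rose from 122, 120 and 107 to 423, 413 and 387 (log2 fold change 1.81, adjusted p = 0.000105 from limma) and was called in 2 of 3 probe sets. The falls with the lowest p were those of Igfbp6, a binding protein for insulin-like growth factor 2, which went from 1049, 1246 and 981 to 240, 256 and 185 (4.83-fold, adjusted p = 7.14e-05 from limma), and of the annexin gene Anxa8, with a log2 fold change of −1.05. These 4 genes had the lowest adjusted p of the list.

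The remaining calls of this list, named for completeness, were rises of Pdpn (podoplanin, 0.61 on the log2 scale), Ezr (ezrin, 1.00) and Cd200 (1.80), and falls of Ptgis (prostacyclin synthase, −2.22), Slpi (a secreted protease inhibitor, −1.69), Aldh1a1 (retinaldehyde dehydrogenase, −1.35), Krt8 (−1.06), Bcam (−0.92) and Thbd (thrombomodulin, −0.87). Ezr was called in 1 of 2 probe sets. Ptgis and Aldh1a1 were under the floor in all pRb-deficient cultures, so their folds were at least 4.67 and at least 2.54. Pdpn is also a gene of osteocytes, and Ezr and Thbd are found in many cell types. Calb2, the calretinin gene used to stain mesothelium, was at 85.9, 38.8 and 126 with pRb and at 21.5, 25.4 and 28.2 without it. These groups did not overlap, and Calb2 missed the threshold narrowly (log2 fold change −1.23, adjusted p = 0.0532 from limma), so it was not called. Aldh1a2 and Efemp1 were at or below 32 in all cultures. Tbx18, a T-box factor of epicardium, was at 982 to 1127 with pRb and 1026 to 1054 without it (log2 fold change 0.01).

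**Figure D4:**
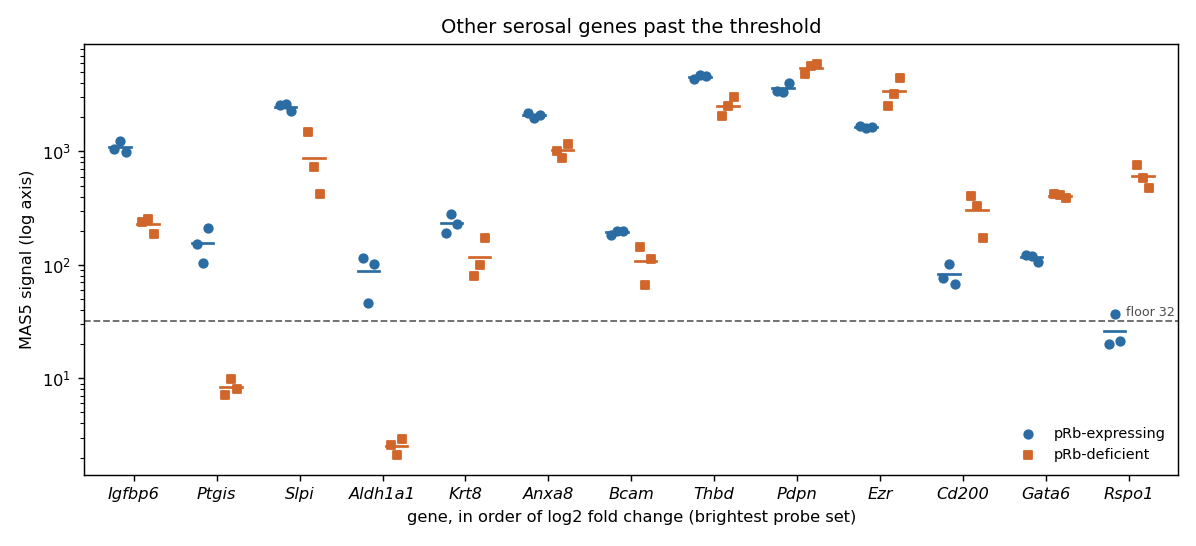
MAS5 signal (log axis) of the 13 other serosal genes that were called (x axis, in order of log2 fold change), in each of 3 pRb-expressing (circles) and 3 pRb-deficient (squares) cultures, with means as bars and the floor of 32 dashed. The 8 genes on the left fell, from Igfbp6 at −2.27, and the 5 on the right rose, up to Rspo1 at 4.15. The changes of Ptgis, Aldh1a1 and Rspo1 are lower bounds in size, so the order depends on the floor.

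Markers of other cells that share these genes were measured as well, and their part in the results was not tested. The counts of calls stand beside backgrounds of 18.5% higher and 23.4% lower over all genes tested. Of 12 epithelial markers, 10 were tested, 0 were called higher by limma (0 at an unadjusted p under 0.05) and 1 was called lower (Cdh1, E-cadherin, from 43.2 to 59.6 down to 2.1 to 13.3), and the summed signal of the list was 1908 to 2014 with pRb and 1479 to 1669 without it. Of 9 urothelial markers, 8 were tested, 0 were called higher by limma (0 at an unadjusted p under 0.05) and 2 lower (Trp63 and Upk1a). Their lower share was thus close to the background. The summed signals were 1623 to 1853 with pRb and 999 to 1048 without it, of which Trp63 alone took 593 to 672 and 116 to 225. Of 9 endothelial markers, 7 were tested and 0 were called in either direction by limma (0 at an unadjusted p under 0.05). The groups did not overlap in 1 that was higher and 1 that was lower, against 23.2% and 30.6% of all genes tested. Summed signals of this list were 603 to 682 with pRb and 583 to 624 without it. Vwf and Tie1 did not exceed 5.9 on any array, while 4 others, among them Kdr and Cdh5, exceeded the floor on all arrays. Kdr was at 219 to 329 with pRb and 228 to 317 without it, and Cdh5 at 65.2 to 96.6 and 50.6 to 77.7. Of the 8 neuronal and glial markers measured, 7 were tested, 1 was called higher (Map2) and 3 lower. Their summed signals were 1085 to 1285 with pRb and 848 to 931 without it.

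**Figure D5:**
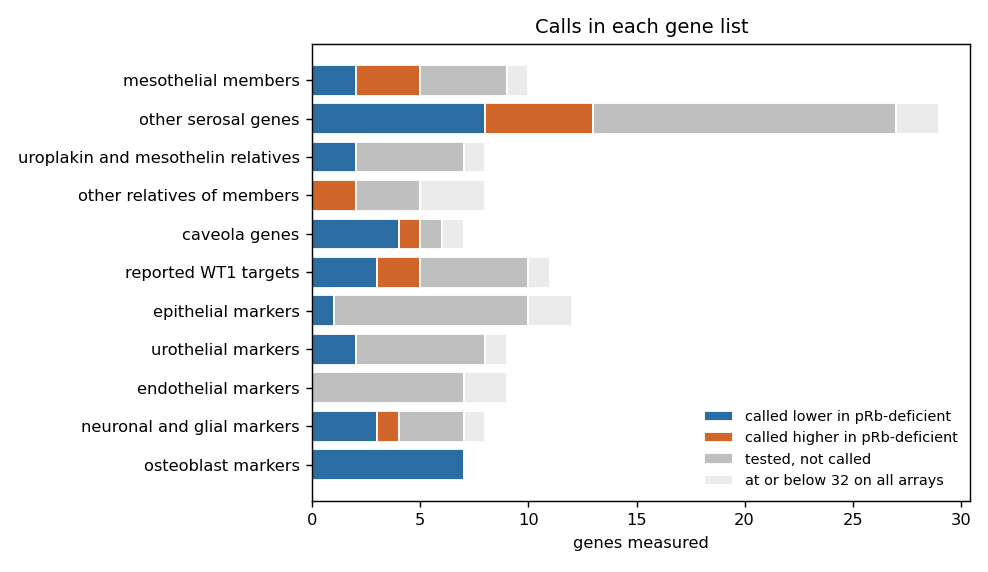
Number of genes (x axis) in each list that were called lower, called higher, tested and not called, or at or below 32 on all arrays, by limma with an adjusted p under 0.05. The mesothelial members and the other serosal genes hold calls of both directions, and the epithelial, urothelial and endothelial lists hold no higher segment. All 7 osteoblast markers analysed are lower.

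The genes whose signals over the 6 cultures lay nearest to those of Msln were Pmaip1, Loxl1, Lrrc15, Mecom and Gch1, by Euclidean distance between log2 signals centred on each gene's mean (0.42 to 0.56 over 6 arrays). Pmaip1 encodes a cell death protein of the BCL2 family, Loxl1 a matrix crosslinking enzyme, Lrrc15 a membrane protein of mesenchymal cells, Mecom a zinc finger factor and Gch1 the first enzyme of tetrahydrobiopterin synthesis. Of these, Loxl1 was above the floor in all cultures (239 to 296 with pRb and 12208 to 14769 without it), while Msln and the other 4 had pRb-expressing arrays set to the floor, so these distances depend on it. Among 16307 genes ranked in this way Bnc1 was number 29, at a distance of 1.09, and the next member, Krt19, was number 1890. Many genes share a difference between the same 2 groups, and nothing about function or control is read from the distance.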

How the data were processed

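Biotin-labeled RNA of 3 pRb-expressing and 3 pRb-deficient MC3T3 cultures was hybridized by the authors, with 1 Affymetrix Mouse Genome array per culture. The deposited values are MAS5 signal intensities on a linear scale, which the authors scaled per array. Affymetrix Expression Console 1.1 and MAS5 are named in the processing notes of the submitters, and no genome build is given in the sources used here. Without the top and bottom 2% of values each array averaged 500.0. The table holds no detection calls, and the number of arrays limits the precision.

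The 64 control probe sets were left out. Signals were floored at 32, and log2 values were fitted with limma 3.58.1 in R 4.3.3 (intensity trend, group as the only term) over 38427 probe sets above 32 on at least 1 array. P-values are two-sided, with Benjamini-Hochberg adjustment over all of them. The fitting steps were tested on simulated data.

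Symbols came from the array's annotation (1 symbol for 34945 probe sets, several for 932, none for 9160). Of the former, 34741 had a gene ID in RefSeq's GRCm38.p6 table, used for names, chromosomes and promoters. The members, lists and alternatives were chosen with earlier results of these data known. Named are all members, Rb1, in each list the up to 4 called genes of lowest adjusted p, relatives and partners of members, the 5 genes nearest to the member with the largest fitted log2 fold change (Msln, a lower bound), and other genes where a count needed them, chosen after their values were seen. Some listed genes were not analysed here. Groups were taken from the sample titles. After removal of group means, same-numbered arrays correlated at 0.02, −0.03 and 0.06 and were not taken as pairs.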

Additional observations from a re-analysis of the deposited data

How the results depend on the processing

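Over 19 alternatives (other floors and filters, a pseudocount, normalization, no trend, array weights, the replicate block, chromosome medians removed, other probe set rules, non-overlap, and each array left out), 2 to 3 members were called higher and 1 to 3 lower, with 4 to 6 other serosal genes higher and 4 to 11 lower. Leaving out each array in turn gave 3 to 3 members higher and 1 to 2 lower, and 4 to 6 other serosal genes higher and 4 to 7 lower. The count of members lower was 1 without pRb-deficient replicate 2. The count of other serosal genes lower was 4 without pRb-expressing replicate 1 or 3 or pRb-deficient replicate 2, and 4 with a floor of 100 or with no filter on low signals, against 8 as reported, and the cause was not tested. With the replicate block these counts were 3, 2, 5 and 8, as reported, so the block changed no call count by over 1.5 times, and the same-numbered arrays share only a number. The log2 fold change of Cav1 turned from −0.44 to 0.14 with chromosome medians removed, which by construction adds 0.58. Msln ranged from 3.91 (floor of 100) to 6.30 (no floor) and Bnc1 from 3.63 to 6.18, and both were called higher in all 17 alternative fits. Krt19 was called higher in 15 of 16 fits, the exception being the floor of 100, and Upk3b was called lower in 5 of 16 fits (no floor, pseudocount of 32, array weights, chromosome medians removed and without pRb-expressing replicate 2). Lrrn4 was called lower without pRb-expressing replicate 1. For signals near the floor (Krt19, Upk3b, Wt1, Lrrn4) the floor limits what can be read.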
